A study of Homo sapiens with 3 samples.

Results

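Short genes of translation and general upkeep of the cell were examined for trimethylation of histone H3 at lysine 36 (H3K36me3) in LNCaP, an established prostate cancer cell line that responds to androgen. The 8 genes are EEF2, EEF1A1, RPL3, RPLP0, RPL8, RPS6, ACTB and GAPDH. They were chosen by name, under a rule that holds no measured value, but with earlier results of these data known. Each was placed by a gene window given in whole kilobases of hg19, from 3 kb (RPL8, ACTB) to 9 kb (EEF2) and 41 kb in all. Chromatin immunoprecipitation sequencing was done with an antibody to H3K36me3 on LNCaP cells without treatment, and on LNCaP cells after 4 h of 100 nM dihydrotestosterone (DHT, a potent androgen) in RPMI described as red-free. Both conditions were LNCaP cells kept in RPMI with 10% serum, both libraries were started from 5 ng of DNA, and each condition has 1 library. Only the treated cells have a stated medium for the treatment, so hormone and change of medium cannot be told apart. An input library with no antibody is labelled in the series and was not analysed here. Over the 8 windows lay 12 of 117568 peaks of the untreated list and 10 of 131801 peaks of the DHT list. Read depth is unknown, since the lists hold no read numbers. A difference between the lists has no replicate check, and no p-value was computed.

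H3K36me3 is placed on nucleosomes by SETD2, an enzyme that travels with elongating RNA polymerase II. It is typically low at the start of a gene and higher toward its 3′ end. EEF1A1 brings aminoacyl-tRNA to the ribosome and EEF2 moves the ribosome along the mRNA. RPL3 and RPL8 are proteins of the large ribosomal subunit near its catalytic centre, RPLP0 is the base of its stalk, and RPS6 is a protein of the small subunit that is phosphorylated downstream of mTOR. ACTB is the cytoskeletal beta-actin, and GAPDH is a glycolytic enzyme. All are transcribed heavily in most cell types, from gene bodies far shorter than the average human gene.

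Start sites of these genes are shown because H3K36me3 is laid down downstream of them, and because most of the translation genes share a layout there. Of the 8 genes, 6 had an entry in the RefSeq promoter table (GRCh38.p14); ACTB and RPL8 are not in it. Each line gives 40 bases before the annotated start and 15 from it, on the coding strand, which reads in the sense of the mRNA, 5′ to 3′. Capitals mark the letters TATA lying between 40 and 20 bases before the start, and a run of at least 6 C or T that reaches to within 2 bases of the start.
EEF2 (chromosome 19, minus strand): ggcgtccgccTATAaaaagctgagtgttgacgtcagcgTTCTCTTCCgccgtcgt
EEF1A1 (chromosome 6, minus strand): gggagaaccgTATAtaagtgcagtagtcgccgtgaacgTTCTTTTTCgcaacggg
RPL3 (chromosome 22, minus strand): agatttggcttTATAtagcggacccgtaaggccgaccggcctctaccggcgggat
RPLP0 (chromosome 12, minus strand): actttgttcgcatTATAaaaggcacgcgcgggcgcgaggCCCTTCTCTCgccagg
RPS6 (chromosome 9, minus strand): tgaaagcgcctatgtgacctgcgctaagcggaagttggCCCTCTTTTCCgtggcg
GAPDH (chromosome 12, plus strand): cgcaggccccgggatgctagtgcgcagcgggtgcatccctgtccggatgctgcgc

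A C/T run over the start is the layout of 5′ terminal oligopyrimidine mRNAs, whose translation is controlled through mTOR. It was found in 4 of the 6 genes, EEF2, EEF1A1, RPLP0 and RPS6, with lengths of 9, 9, 10 and 11 bases, and in 16.7% of all 35114 promoters of the table. In RPL3 the run at the annotated start was 5 bases long. TATA was found in 4 of the 6, EEF2, EEF1A1, RPL3 and RPLP0, at positions -30, -30, -29 and -27, and in 5.96% of all promoters. The motifs did not overlap, and only the coding strand was searched. EEF2, EEF1A1 and RPLP0 had both, which 0.934% of all promoters have. These letters describe the sequence and were not tested against the mark. Since the genes were chosen as genes of translation and general upkeep, the shares of all promoters are given for scale only. In the peak lists the 3 genes with both differed widely, from no peak over EEF2 to 59.3% of the RPLP0 window in untreated cells.

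Peaks lay over 7 of the 8 gene windows in untreated cells and over the same 7 after DHT, EEF2 being the exception in both. Of all 5 kb tiles of the genome, 14.9% held a peak in the untreated list and 16.2% in the DHT list. Tiles here run from position 1 of each chromosome to its last peak, so unsequenced and gene-free stretches are among them. At least 25% of the window was covered by peaks in 5 genes of each library (RPL3, RPLP0, RPL8, ACTB and GAPDH), against 2.08% of tiles untreated and 1.95% after DHT. At least 50% was covered in 5 genes untreated and in 4 after DHT, where RPLP0 was below it, against 0.358% and 0.357% of tiles. Summed over the 8 windows, untreated peaks covered 18423 bp (44.9%) and DHT peaks 17232 bp (42.0%). The ratio of DHT to untreated was 0.935, with a 95% counting interval of 0.317 to 2.76 that treats peaks as independent and does not cover the spread between libraries.

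**Figure D1:**
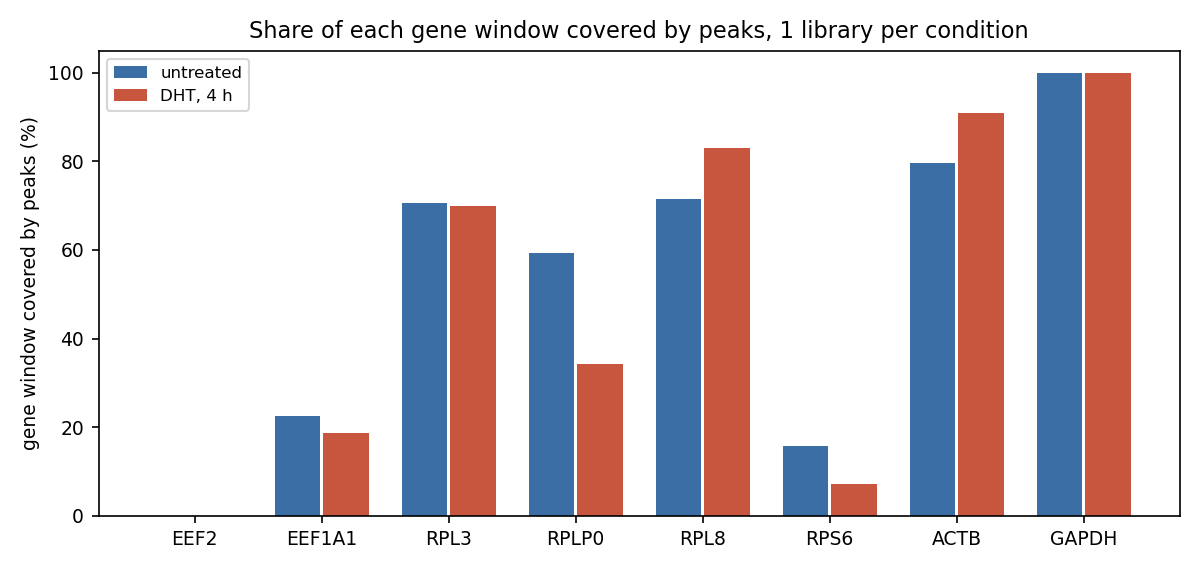
Share of each gene window covered by H3K36me3 peaks (%, vertical axis) for the 8 genes (horizontal axis) in the untreated and the DHT library, 1 bar per library and no error bar since each condition has 1 library. EEF2 is at 0 in both, GAPDH at 100% in both, and RPLP0 shows the widest gap between libraries, 59.3% against 34.2%.

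The same bases were mostly covered in both libraries. Of the 19433 bp covered in either library over the windows, 16222 bp (83.5%) were covered in both. Over the whole genome that share was 32.5%, and over 5 kb tiles with at least 25% covered in either library it was 42.0%. Among the genes the share ran from 45.2% at RPS6 through 56.9% at RPLP0, 70.9% at ACTB, 80.5% at EEF1A1, 84.4% at RPL8 and 98.9% at RPL3 to 100% at GAPDH. These are single values over a handful of genes, and whether the genes differ from other marked sequence was not tested.

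GAPDH was the most completely marked of the 8 in the windows as given. Its window (hg19 chr12:6644001-6648000) was covered in full by 1 peak in each library. In untreated cells the peak ran from 6643970 to 6648359, 4390 bp, with a score of 425. After DHT it ran from 6643938 to 6648064, 4127 bp, with a score of 434. The score is the peak caller's, as the authors deposited it, on a scale the files do not state, and it ranks peaks within a list. At least that score was reached by 0.821% of untreated and 1.15% of DHT peaks. Only 0.0140% of 4 kb tiles were covered in full in the untreated list and 0.0156% in the DHT list. On the 5′ side the peaks began 31 and 63 bp before the edge of the window, within 32 bp of each other. With windows extended by 1 kb at each side GAPDH was at 73.2% untreated and 68.8% after DHT. In that setting ACTB (74.6%) and RPL8 (69.8%) were above it after DHT, so the ranking depends on the window.

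ACTB carried the highest-scoring peaks of the group. In its window (hg19 chr7:5567001-5570000) peaks covered 2390 bp (79.7%) in the untreated library and 2731 bp (91.0%) in the DHT library. The untreated peak ran from 5567004 to 5569393 and scored 637, a score reached by 0.168% of its list. The DHT peak ran from 5567270 to 5570053 and scored 679, reached by 0.216% of its list. The 2 peaks were thus displaced: that of untreated cells left 607 bp free at the 5′ edge, and that of treated cells passed this edge by 53 bp and left 269 bp free at the 3′ edge. In each library another peak followed beyond the 3′ edge, 1620 and 1650 bp wide, after gaps of 56 and 322 bp.

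RPL3 lay under the widest peak of the group in untreated cells, while after DHT the GAPDH peak (4127 bp) was the widest over the windows. Its window is hg19 chr22:39709001-39716000. In untreated cells 1 peak of 6529 bp ran from 39707411 to 39713939 with a score of 312, and 0.0221% of the list was at least as wide. After DHT the same stretch held 2 peaks of 3707 and 2805 bp, from 39707390 to 39711096 and from 39711142 to 39713946, parted by 45 bp. Their outer ends lay within 21 bp of the untreated peak at the 3′ side and within 7 bp at the 5′ side. Covered length in the window was 4939 bp (70.6%) and 4901 bp (70.0%), a level reached by 0.0310% of 7 kb tiles untreated and 0.0389% after DHT. The 2 DHT peaks scored 325 and 71.6. The latter is below the list's median of 85.7, and with only the higher-scoring 50% of each list the DHT value for RPL3 was 29.9%.

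RPL8 had 2146 bp (71.5%) of its window (hg19 chr8:146015001-146018000) under peaks in untreated cells, and 2488 bp (82.9%) in treated ones. In untreated cells 2 peaks of 1771 and 2167 bp, scoring 389 and 304, were parted by 61 bp. After DHT 2 peaks of 1080 and 3048 bp, scoring 181 and 323, were parted by 25 bp. The break lay at a different place in each library, but the outer ends differed by 306 bp on the 5′ side and 152 bp on the 3′ side. Seen as 1 stretch, the marked part of RPL8 began 793 bp inside the 5′ edge untreated and 487 bp inside it after DHT.

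RPLP0 had a peak of nearly identical extent in both libraries and differed at its 3′ end. The main peak in the window (hg19 chr12:120634001-120639000) ran from 120635710 to 120637405 in untreated cells and from 120635698 to 120637408 after DHT, so that its ends differed by 12 and 3 bp. It scored 370 and 251. Untreated cells had 2 further peaks toward the 3′ end, 831 and 437 bp wide with scores of 98.7 and 84.4. DHT-treated cells had no peak there, and 1 of 554 bp just past the 3′ edge with a score of 73.6. Covered length in the window was 2964 bp (59.3%) untreated and 1711 bp (34.2%) after DHT, 1.73 times as long in untreated cells. With the window extended by 1 kb at each side the gene no longer passed 1.5-fold. With peaks joined at gaps up to 5 kb the direction turned, to 65.9% untreated and 68.2% after DHT.

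EEF1A1 was marked in the 5′ and middle parts of its window, with no peak toward the 3′ edge. In its window (hg19 chr6:74225001-74231000) untreated cells had peaks of 959 bp from 74229830 to 74230788 and of 397 bp from 74228359 to 74228755. Treated cells had peaks of 809 bp from 74229903 to 74230711 and of 308 bp from 74228345 to 74228652. Covered length was 1356 bp (22.6%) and 1117 bp (18.6%). The peak nearer the start scored 142 untreated and 410 after DHT, reached by 17.7% and 1.40% of the lists, and the other scored 207 and 194. No peak of either library lay over the rest of the window toward the 3′ edge.

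RPS6 was thinly covered, by peaks that rank low in their lists. Its window is hg19 chr9:19376001-19380000. Untreated cells had peaks of 359 and 269 bp with scores of 73.8 and 51.2, and DHT-treated cells had 1 of 284 bp scoring 56.9, which lay inside the 359 bp peak. Covered length was 628 bp (15.7%) and 284 bp (7.10%), 2.21 times as long in untreated cells. All 3 scores are below the median of their list, 81.2 and 85.7. With only the higher-scoring 50% of each list RPS6 had no peak in either library. With peaks joined at gaps up to 5 kb it was at 74.7% and 52.4% and no longer passed 1.5-fold. The untreated level was reached by 4.56% of 4 kb tiles of its list and the DHT level by 10.6%.

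EEF2 had no peak in either library, neither over its 9 kb window (hg19 chr19:3976001-3985000) nor in the 10 kb upstream of it. It sat in a peak-free stretch of 45737 bp in untreated cells, from 3964120 to 4009856, and of 44213 bp after DHT, from 3968512 to 4012724. Between 3 and 4 Mb of chromosome 19, 4 of 52 stretches between untreated peaks were longer, and 4 of 72 between DHT peaks. The median stretch there was 9308 and 7668 bp. The peaks that bound the stretch were wide, 2205 and 1446 bp untreated and 3981 and 6179 bp after DHT, with scores of 55.5, 76.2, 107 and 93.3 in that order. In the 50 kb on either side of the window peaks covered 7.19% untreated and 18.2% after DHT, while the gene itself stayed without one. A list shows where a threshold was passed, so a level of the mark below it cannot be seen here.

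**Figure D2:**
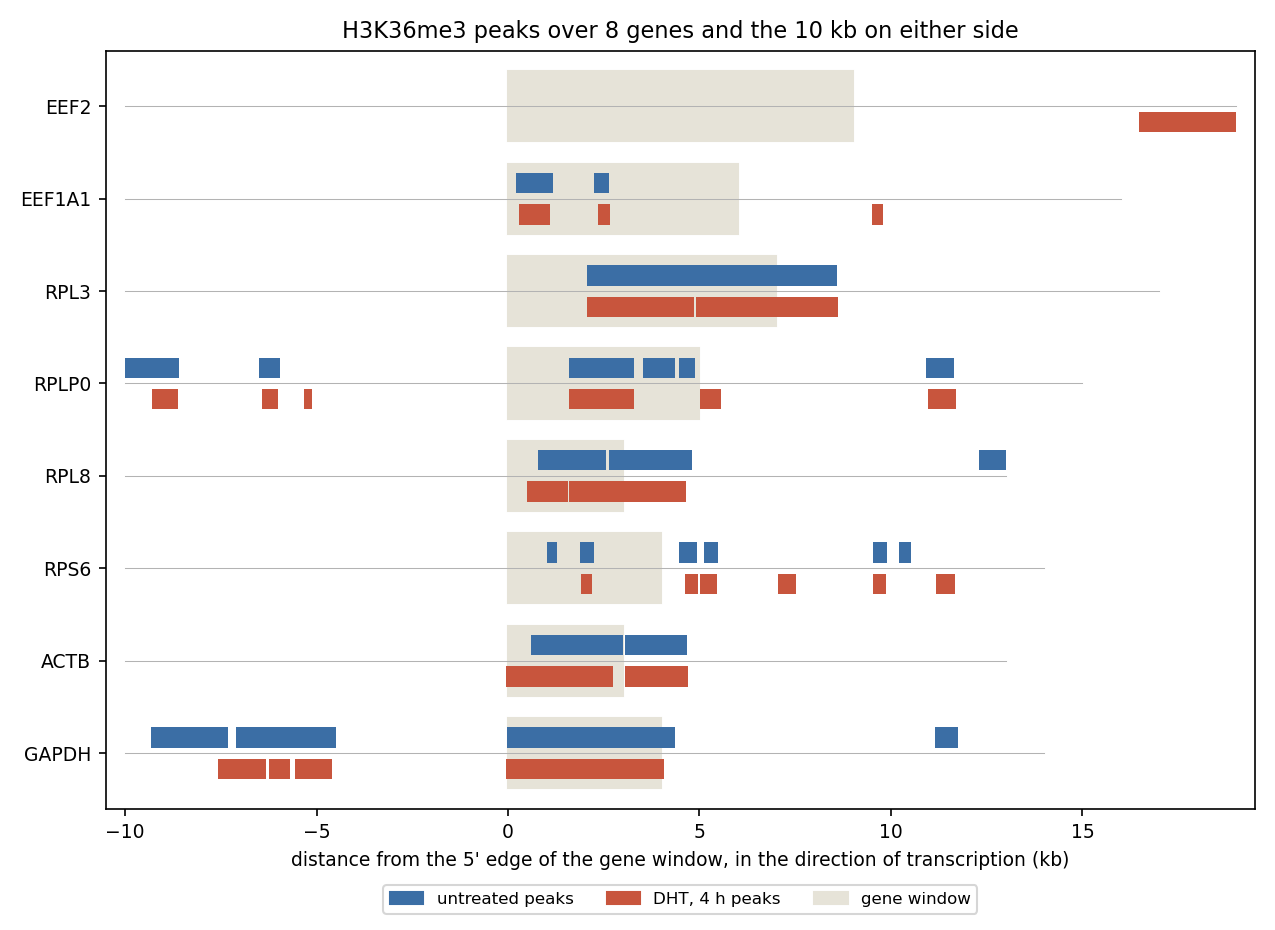
H3K36me3 peaks over the 8 genes and 10 kb on either side, drawn by distance from the 5′ edge of the gene window (kb, horizontal axis) in the direction of transcription, with untreated peaks above and DHT peaks below each line and the gene window shaded. Peaks cluster inside the window and just past its 3′ edge, the EEF2 window has none, and the 4 kb before the 5′ edge are empty except for the last 63 bp.

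Scores and widths of the peaks over the windows were mostly above the middle of their lists. Of the 12 untreated peaks, 10 scored above the list's median and 6 were in its top 5%. Of the 10 DHT peaks, 8 scored above the median and 5 were in the top 5%. In width, 10 of 12 and 8 of 10 were above the median of 374 and 354 bp. RPS6 gave all of the untreated exceptions in score. After DHT the exceptions were RPS6 and the second RPL3 peak.

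**Figure D3:**
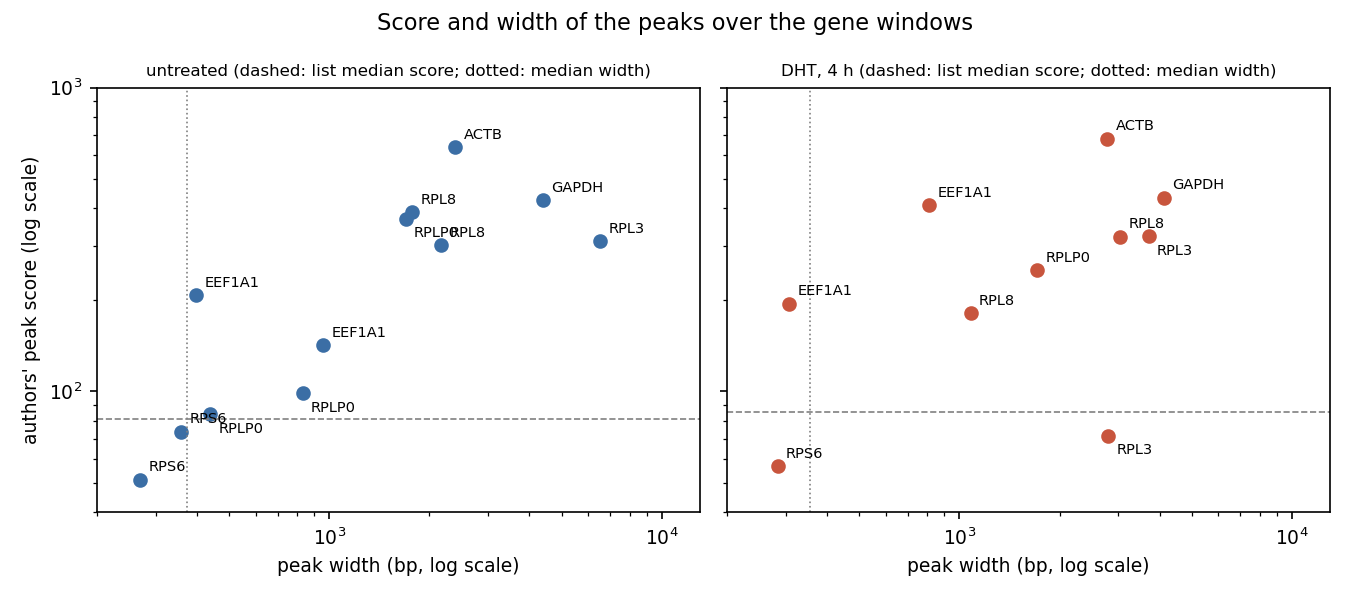
Width (bp, log scale, horizontal axis) and score as deposited by the authors (log scale, vertical axis) of each peak over the gene windows, 12 untreated (left) and 10 DHT (right), with the median score (dashed) and median width (dotted) of each whole list. ACTB is the highest in both libraries, at 637 and 679, and RPS6 lies below the median score in both.

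Summed over the 8 genes, the mark was thin toward the 5′ edge and highest in the middle, but the layout varied between genes. A peak crossed the 3′ edge only at RPL3, RPL8 and GAPDH, in both libraries. GAPDH was covered in full throughout its window. With each window divided into 3 parts of equal length, the 5′ part was covered over 25.6% untreated and 29.3% after DHT, summed over the 8 genes. The middle part was covered over 58.9% and 57.6%, and the 3′ part over 50.3% and 39.2%. Most of the lower DHT value of the 3′ part came from RPLP0, whose 3′ part went from 76.1% to 0%, and from ACTB, from 99.7% to 73.1%. With peaks joined at gaps up to 5 kb the 3′ part was at 62.6% untreated and 63.4% after DHT, so the direction turned. In the 5′ part ACTB went from 39.3% to 100% and RPL8 from 20.7% to 51.3%, while RPS6 went from 20.2% to 0%. EEF1A1 had the reverse layout, at 48.0% and 40.5% in the 5′ part and 0% in the 3′ part, and RPS6 also had no peak in its 3′ part in either library. Because the windows are rounded to whole kilobases, an edge can be off from the gene's end by part of a kilobase.

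No gene had a peak lying wholly within 4493 bp upstream of its window in either library. The only peaks that reached past a 5′ edge were those of GAPDH, by 31 and 63 bp, and of ACTB after DHT, by 53 bp. The distance from the 5′ edge to the first peak was longest at RPL3, 2061 bp untreated and 2054 bp after DHT. At RPLP0 it was 1595 and 1592 bp. At RPS6 it was 1012 and 1903 bp, so after DHT it was longer there than at RPLP0. In these 3 genes of the ribosome the first 1 kb of the window was free of peaks in both libraries. RPL8, also a gene of the ribosome, went the other way, with its first peak 793 bp from the edge untreated and 487 bp after DHT.

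Past the 3′ edge the mark ended at a similar distance in 3 genes. It reached 1590 bp untreated and 1611 bp after DHT past the window of RPL3, 1792 and 1640 bp past that of RPL8, and 1673 and 1703 bp past that of ACTB. At ACTB this was the end of a separate peak, after gaps of 56 bp untreated and 322 bp after DHT. GAPDH differed, with 359 and 64 bp, and so did RPLP0 after DHT, where a separate peak ended 557 bp past the edge. No other downstream peak of RPL3 or ACTB followed within the 10 kb. At RPS6 peaks resumed 474 bp past the 3′ edge untreated and 616 bp after DHT and then recurred through the 10 kb.

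**Figure D4:**
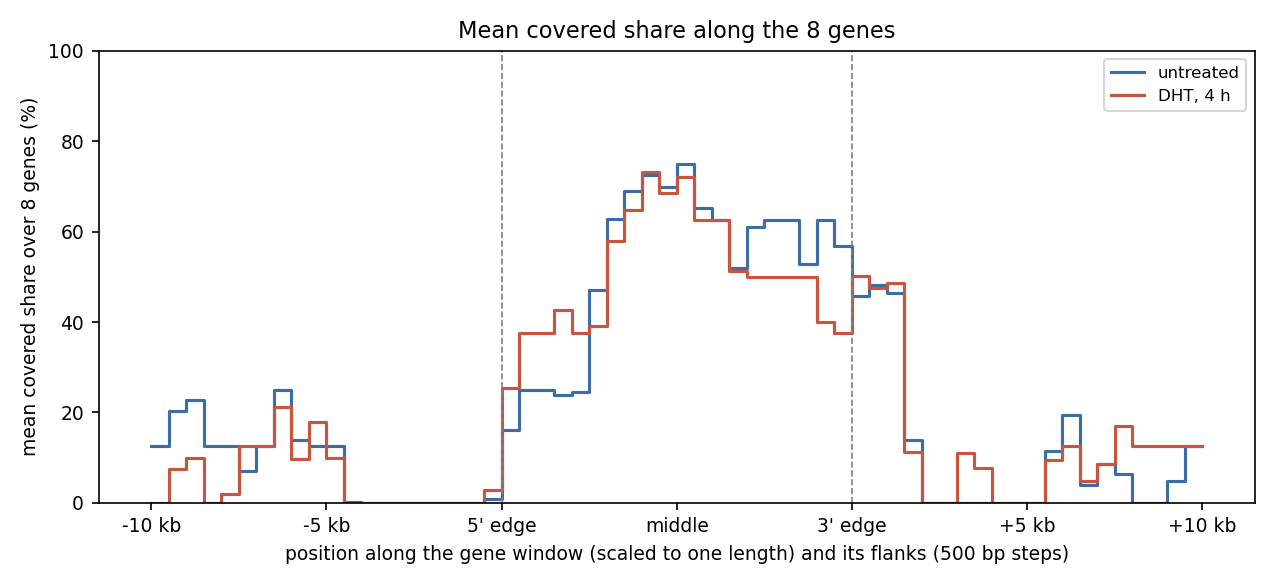
Mean share covered by peaks over the 8 genes (%, vertical axis) along the gene window, scaled to one length, and along 10 kb on either side in 500 bp steps (horizontal axis), for 1 library per condition. Both lines are at 0 from about 4 kb to 0.5 kb before the 5′ edge, peak near the middle at 75% untreated and 73.2% after DHT, and drop within 2 kb past the 3′ edge.

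The neighbouring 10 kb were far less covered than the genes. Over the 16 flanks together 9.66% was covered in untreated cells and 9.62% after DHT, against 44.9% and 42.0% in the windows. The window was more covered than the mean of its flanks in 7 of 8 genes untreated and in 6 of 8 after DHT. The exceptions were EEF2 in both libraries and RPS6 after DHT. A peak was present in 8 of the 16 flanks untreated and in 11 after DHT, while 21.9% and 23.4% of 10 kb tiles held one.

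Covered shares differed between the sides, in part through the genes' own peaks. Upstream, 8.25% was covered untreated and 5.28% after DHT. Downstream it was 11.1% and 14.0%. The downstream shares include tails of window peaks, 1590 and 1611 bp at RPL3, 1792 and 1640 bp at RPL8, and 359 and 64 bp at GAPDH. Upstream, GAPDH alone gave 4631 of 6603 bp untreated and 2849 of 4223 bp after DHT. The sides were not compared without these parts. A peak lay in the upstream 10 kb of 2 genes untreated, RPLP0 and GAPDH, and of 3 after DHT, when the 53 bp of ACTB were added. Downstream, 6 genes had a peak untreated and all 8 after DHT, GAPDH there by only 64 bp of its own window peak. With at least 200 bp required, 8 of the 16 flanks of both sides had a peak untreated and 9 after DHT.

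Gene by gene, the flanks of EEF2 were at 0% upstream in both libraries, and at 0% downstream untreated and 25.1% after DHT, the side on which DAPK3 is the next protein-coding gene in the RefSeq order. Those of EEF1A1 were at 0% upstream, and at 0% downstream untreated and 2.81% after DHT, from a single peak of 281 bp on the side of MTO1. RPL3 had 0% upstream and 15.9% and 16.1% downstream, all of it the tail of its own peak. RPL8 had 0% upstream and 24.8% and 16.4% downstream, toward ZNF34. Of this, 1792 of 2483 bp untreated and all 1640 bp after DHT were the tail of its own peak. ACTB had 0% and 0.530% upstream and 16.2% and 16.5% downstream.

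RPLP0, RPS6 and GAPDH lay among other peaks. RPLP0 had 19.7% and 13.2% upstream, toward PXN, and 7.13% and 12.8% downstream, toward GCN1. RPS6 had 0% upstream and 14.96% and 21.3% downstream, toward DENND4C, more than the 7.10% of its own window after DHT. GAPDH had 46.3% and 28.5% upstream, toward NCAPD2, and 9.56% and 0.640% downstream, toward IFFO1. Gene order is that of GRCh38.p14, and peaks outside the 8 windows were not assigned to a gene.

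**Figure D5:**
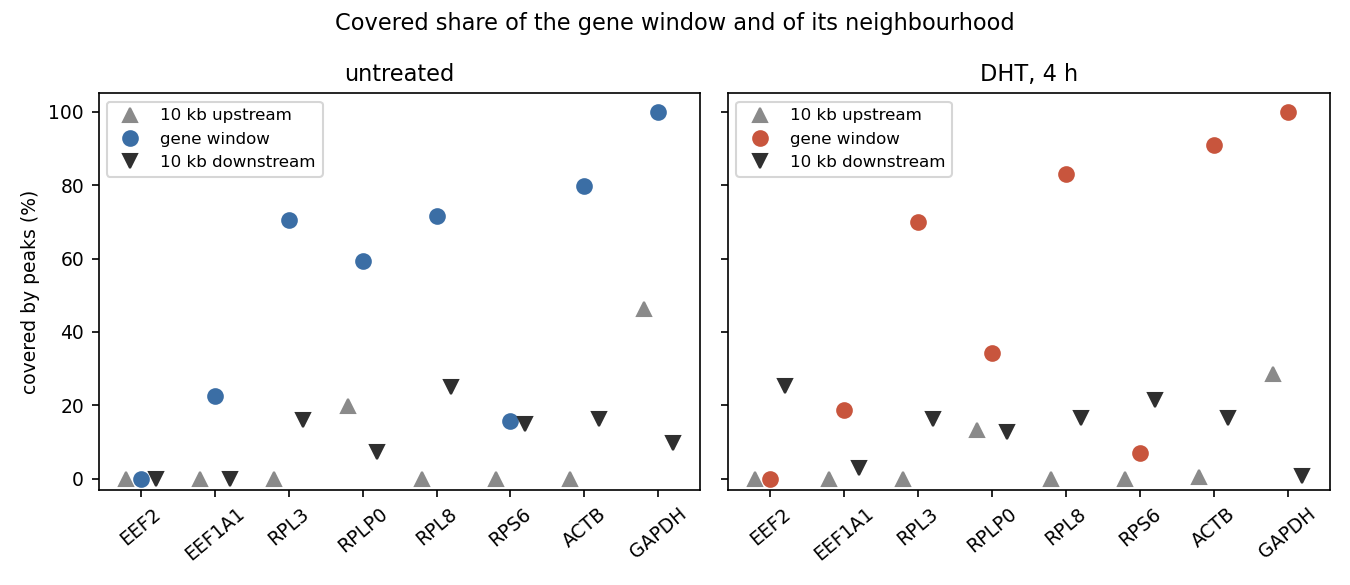
Share covered by peaks (%, vertical axis) of each gene window and of the 10 kb upstream and downstream of it for the 8 genes (horizontal axis), untreated on the left and DHT on the right, 1 library each. Upstream flanks are at 0 for EEF2, EEF1A1, RPL3, RPL8 and RPS6 in both libraries, and GAPDH has the most covered one, 46.3% and 28.5%.

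Between the libraries, none of the 7 genes with at least 500 bp covered in either was 1.5-fold more covered after DHT, and 2 were at least 1.5-fold less covered, RPLP0 and RPS6. Of the 5 kb tiles with 500 bp covered in either list, 30.2% passed 1.5-fold toward DHT and 32% toward untreated cells, so 2 of 7 is near what tiles show. Of the tiles at least 25% covered in untreated cells, 41.4% were at least 1.5-fold less covered after DHT, while of the 5 genes at that level 1 was, RPLP0. Selecting by untreated coverage by itself favours a lower value in the other list, and the reverse selection was not made. Whether the genes differ from the tiles was not tested. At EEF1A1 covered length was 0.824 times as long after DHT, at RPL3 0.992 times, at GAPDH 1 times, at ACTB 1.14 times and at RPL8 1.16 times.

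Peak ends matched to different degrees between the libraries. Each of 9 untreated peaks over the windows that overlapped a DHT peak was paired with the one it overlapped most. In 3 of the 9 pairs both ends lay within 100 bp, 1 each at EEF1A1, RPLP0 and RPS6. Of all 61435 such pairs 41.3% did, and of pairs in which both peaks are at least 1 kb wide 16.5%. The matched peaks at EEF1A1 (959 and 809 bp) and RPS6 (359 and 284 bp) are narrower than 1 kb, so 3 of 9 is not comparable with the latter share. Among the genes' pairs of that width only the RPLP0 pair matched, and those at RPL3, RPL8, ACTB and GAPDH did not. The other 6 pairs were the second EEF1A1 peak, 1 pair each at RPL3, ACTB and GAPDH and 2 at RPL8.

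Several of these genes have many processed copies elsewhere in the genome, to which reads of their exons can map equally well. RefSeq lists 65 pseudogenes named for GAPDH, 50 for EEF1A1, 26 for RPS6, 14 for ACTB, 13 for RPL3, 12 for RPLP0, 5 for RPL8 and none for EEF2. GAPDH was covered in full, EEF1A1 and RPS6 were the least covered of the genes with a peak, and EEF2 had no peak. How reads with several matches were handled is not given in the sources used here, and its part in these values was not tested. Values for the genes with many copies are uncertain for that reason.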

How the data were processed

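H3K36me3 ChIP-seq peak lists of 2 LNCaP libraries were used, untreated and DHT, 1 per condition. The peak names give MACS as the caller, each library has its own list, and file names give hg19 as the build. The score of each peak is the authors' deposited value, from 50 to 3100 in both lists. For the aligner, caller settings, control and read depth: not given in the sources used here. The 117564 and 131798 peaks of the autosomes, X and Y were kept, and 4 and 3 were set aside.

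Gene windows came from the rule naming the 8 genes. All 8 are named. Genes, windows and measures were chosen with earlier results of these data known, and the comparison of peak ends, the motifs and the pseudogene counts after the peaks had been seen. Strand came from the RefSeq promoter table, and for ACTB and RPL8 from general knowledge. Covered length was counted in Python 3.11.15 with NumPy 2.4.6 at a minimum overlap of 1 bp. It equalled that of bedtools 2.31.1 in all 16 values, and the known length in 600 of 600 windows simulated from 400 peaks. No annotation of hg19 was at hand, so other ribosomal and housekeeping genes and LNCaP markers were not placed. Alternatives were the higher-scoring 50% of each list, equal covered length, joining at 1 kb and 5 kb, windows extended by 1 kb, 200 bp of overlap, 2-fold and 5 kb flanks.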

Additional observations from a re-analysis of the deposited data

How the results depend on the processing

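Each condition has 1 library, so no replicate could be left out. No paired analysis was possible because each condition has a single library and no test was run. The number of genes with a peak, 7 in each library, was 6 in each for the higher-scoring 50% of the lists, without RPS6, and 7 under the other 5 settings run. EEF2 was at 0 in both lists under each of the 5 settings that recompute gene values. Trimming to the same covered length drops only the lowest-scoring peaks of the DHT list. It removed none over the windows and left all 16 gene values unchanged, so it is no check on them. With peaks joined at 5 kb, 10 of 16 gene values stayed within their intervals. These are Wilson intervals at 95% on units of 200 bp. They treat neighbouring units as independent although 1 peak can span many, so they only scale a change and do not measure error. The spread between libraries is not covered.

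Genes at least 1.5-fold less covered after DHT numbered 0 when peaks were joined at 5 kb, 1 (RPS6) in windows extended by 1 kb and 1 (RPS6) at 2-fold. In the higher-scoring 50% the number was again 2, but RPL3 and RPLP0. Covered share of the 8 windows was 54.3% untreated and 54.5% after DHT joined at 5 kb, and 34.5% after DHT in the higher-scoring 50%. Covered share of the 10 kb flanks was 6.97% and 6.99% in the higher-scoring 50%, and 17.5% and 21.3% joined at 5 kb. The 5′ part was at 10.8% and 14.6% in windows extended by 1 kb, which takes in sequence before the gene. The 3′ part was at 62.6% and 63.4% joined at 5 kb, where its lower DHT value was no longer seen. Joining fills gaps by construction. The ratio of covered length ran from 0.795 (higher-scoring 50%) to 1.004 (joined at 5 kb). Pairs with both ends within 50 bp, added after the data were seen, were 11.1% over the genes and 22.1% of all pairs, and within 200 bp 44.4% and 65.0%.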
